A study of Mus musculus with 32 samples.

Results

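TGF-beta and BMP pathway genes were followed through 8 groups of mouse lung organoid libraries. They comprise 47 genes of the 11818 in the deposited count table, chosen by symbol as the TGF-beta, BMP, activin and GDF ligands, their receptors, Smad and Smurf proteins, latent TGF-beta binding proteins, Grem1 and follistatins, Id genes and a few named regulators. Symbols of the rule with no row in the table, such as Tgfbi and Nog, were not analysed here. Every gene in the table held at least 1 count in every library. The comparisons below therefore cover only genes with counts in both populations. Bmp1, a procollagen proteinase, and Bmp2k, a kinase, entered by their names and are not BMP ligands. By role the genes are 10 ligands, 5 genes of ligand processing and storage, 4 extracellular inhibitors, 11 receptors and co-receptors, 7 Smads, 6 intracellular regulators and 4 Id response genes.

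TGF-beta, activins and BMPs are secreted dimers that bind pairs of type I and type II serine/threonine kinase receptors. TGF-beta and activin receptors act mainly through Smad2 and Smad3, and BMP receptors through Smad1 and Smad5, each with the shared partner Smad4. Several, though not all, of the latent TGF-beta binding proteins hold TGF-beta in the matrix. Grem1 (gremlin) traps BMPs, follistatins trap activins, and the Id genes are classic targets of BMP signaling. In the lung these signals pass in both directions between epithelium and fibroblasts, where TGF-beta is best known for driving matrix production.

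Epcam+ cells (sorted CD45-, CD31- and Epcam+) from lungs of C57BL/6J mice, 8 to 14 weeks old, were grown in Matrigel with equal numbers of CCL206 cells, a mouse lung fibroblast line that had been treated with mitomycin C to stop its proliferation. Cultures of 4 mice received vehicle, extracellular vesicles (EVs, 1000000000 particles per mL), soluble factors (SFs, 30 µg/mL) or recombinant human osteoglycin (OGN, 10 µg/mL), with EVs and SFs separated from medium of the human lung fibroblast line MRC5. After 72 h each culture was sorted again into Epcam+ cells and CCL206 fibroblasts, so that 32 libraries made 8 groups of 4. All fibroblasts are 1 cell line, and the mouse number of a fibroblast library names the animal whose Epcam+ cells shared the culture.

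Depth lay between 1805914 and 17675454 counts per library (median 5901652), and all 47 genes passed the filter on low counts in every comparison. Levels are given as CPM (the counts-per-million unit) on library sizes scaled by TMM. In bulk RNA, fewer cells of a type and less RNA per cell cannot be told apart. The labelled populations carried their own markers. Summed over 8 epithelial genes, Epcam+ cells with vehicle held 5914 ± 108 CPM (SD, n = 4) and fibroblasts 443 ± 173 CPM. Each population also held markers of the other. The fibroblast list of 9 genes reached 2497 ± 415 CPM in Epcam+ cells with vehicle, which is 20.8% of its level in fibroblasts, and the AT2 list of 10 genes in fibroblasts reached 25.3% of its level in Epcam+ cells. Of 12 leukocyte markers only 3 had a row in the table, Cd68, Lyz2 and Cd14. The rest, Ptprc and Adgre1 among them, did not. As every gene of the table had counts in each library, a missing row does not show that RNA was absent. The sum of Cd68, Lyz2 and Cd14 was higher with OGN in both populations. It was 712 to 872 CPM against 464 to 513 with vehicle in Epcam+ cells and 196 to 341 against 77.4 to 149 in fibroblasts. Which cells carried their RNA was not tested. The part of these markers in the results below was not tested.

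Among the genes of the table, which all had counts in both populations, the populations differed first in where ligands and their traps lay. With vehicle, Bmp3, Bmp4, Bmp5, Tgfb2 and Tgfb3 were higher in Epcam+ cells, whereas Grem1, latent TGF-beta binding proteins, activin subunits and 4 of 7 Smads were higher in fibroblasts. Of the 47 genes, Epcam+ cells had 12 higher and 27 lower at an adjusted p under 0.05 (edgeR quasi-likelihood test with mouse as a term), which is 83% beside 71.4% of all 11749 genes tested (35.6% higher and 35.8% lower). The median log2 difference of the 47 genes was -0.585, beside -0.000309 over all genes.

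Among the ligands 6 of 10 were higher in Epcam+ cells and 3 lower. Bmp5, a BMP ligand, had 55.7, 53.7, 43.9 and 53.0 CPM in Epcam+ cells of mice 1 to 4 and 11.1, 5.83, 5.49 and 3.66 CPM in the fibroblasts. The groups did not overlap (log2 difference 3.02, SE 0.22, adjusted p = 3.78e-07). Bmp3, an atypical ligand that opposes other BMPs, differed by 3.00 on the log2 scale (41.0 ± 5.45 and 5.42 ± 3.23 CPM, SD, n = 4). Bmp4, a main BMP of lung development, differed by 2.17 (70.1 ± 10.9 and 15.3 ± 1.73 CPM), and Gdf15, a stress-induced ligand, by 2.12 (10.6 ± 3.66 and 2.69 ± 1.99 CPM). Tgfb2 and Tgfb3 were also higher in Epcam+ cells, by 1.82 and 0.82. Inhba and Inhbb, which encode the activin subunits beta A and beta B, and Gdf11, an activin-like ligand, were lower in Epcam+ cells by log2 differences of -1.53, -1.63 and -1.88. Tgfb1, the main TGF-beta of injured tissue, had 34.6 and 32.4 CPM (log2 difference not called).

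All 5 genes of processing and storage and 3 of 4 extracellular inhibitors were lower in Epcam+ cells. Grem1, a secreted BMP trap, had 313, 325, 553 and 713 CPM in Epcam+ cells of mice 1 to 4 and 2065, 2362, 3169 and 3103 CPM in fibroblasts. No Epcam+ library reached a fibroblast library (log2 difference -2.55, SE 0.11, adjusted p = 1.06e-08). The latent TGF-beta binding protein genes Ltbp2 and Ltbp1 differed by -2.64 and -2.43. Grem1, Ltbp1 and Ltbp2 in Epcam+ cells stood at 17.8%, 19% and 16.3% of their fibroblast level, near the 20.8% of the fibroblast list. Fstl3, a follistatin-like activin trap, was the inhibitor not called.

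Receptors were divided, with 5 higher in Epcam+ cells, 5 lower and 1 not called. Tgfbr1 (log2 difference 1.32) and Acvr1b (0.97), the type I receptors for TGF-beta and activin, and Bambi (1.64), a decoy receptor without a kinase, were higher in Epcam+ cells. Tgfbr3, the TGF-beta co-receptor betaglycan, showed the reverse, with 46.3, 40.2, 65.1 and 73.1 CPM in Epcam+ cells and 355, 320, 373 and 396 CPM in fibroblasts. These groups did not overlap (log2 difference -2.72, SE 0.11, adjusted p = 6.19e-09). Acvrl1, a type I receptor known from endothelium, and Bmpr2, the BMP type II receptor, were lower in Epcam+ cells by -2.16 and -1.06.

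Within the cell, 4 of 7 Smads and 4 of 6 intracellular regulators were lower in Epcam+ cells and none higher. Smad3 had the largest difference of the Smads (-1.26, 108 ± 5.96 and 260.3 ± 12.9 CPM, SD, n = 4). The inhibitory Smad7 differed by -0.83, while Smad1, Smad4 and Smad6 were not called. The Id genes, inhibitors of helix-loop-helix transcription factors, did not share a direction. Id1, Id2 and Id3 were lower in Epcam+ cells by -1.54, -0.42 and -2.09. Id4 had 16.4, 19.9, 11.5 and 12.6 CPM in Epcam+ cells and 0.317, 3.33, 1.02 and 1.58 CPM in fibroblasts. Its groups did not overlap (log2 difference 3.43, SE 0.39, adjusted p = 1.48e-05), although the lowest fibroblast library held only 3 counts of it.

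**Figure D1:**
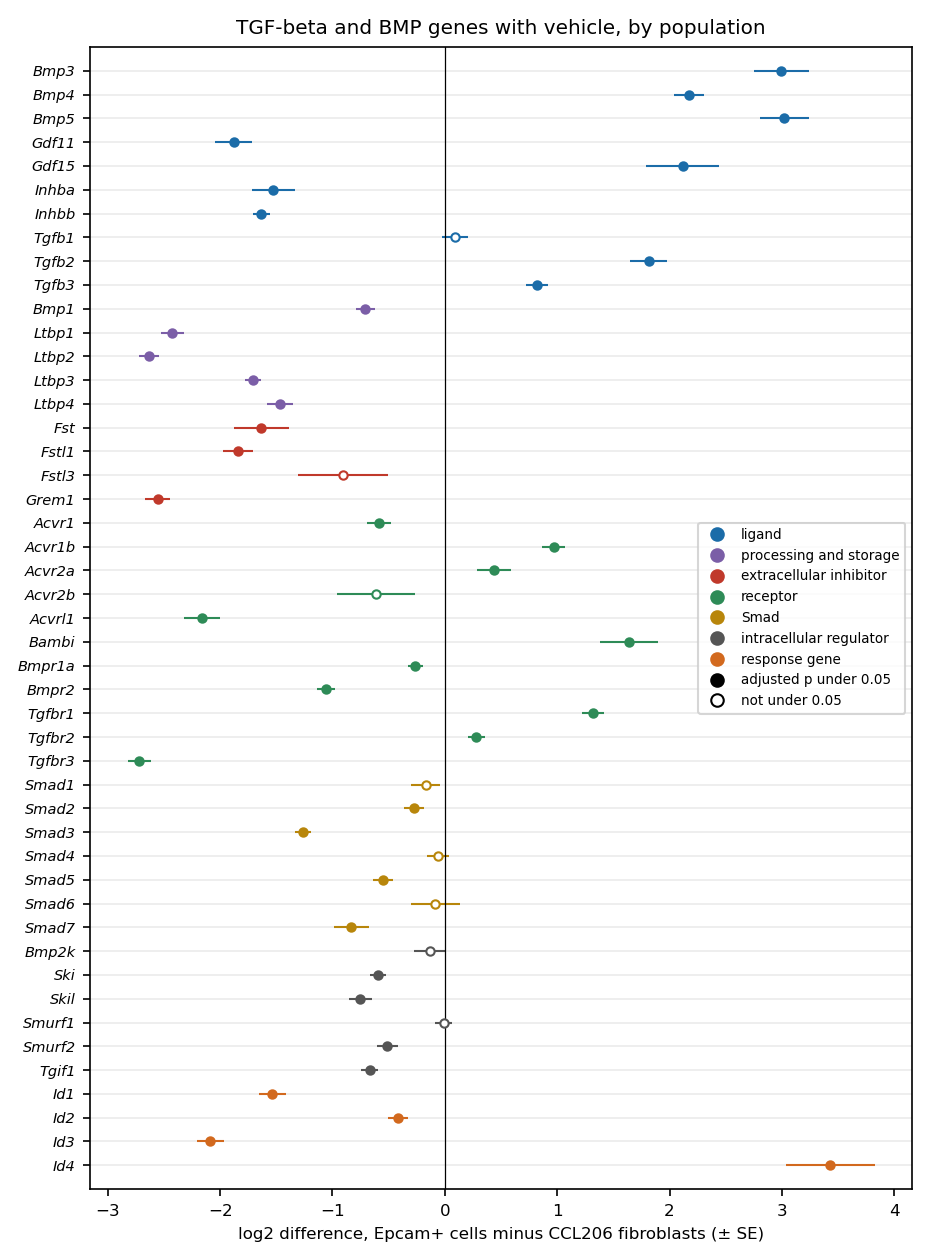
Log2 difference between Epcam+ cells and CCL206 fibroblasts with vehicle (x axis, positive where Epcam+ cells are higher, bars ± SE, 4 libraries per population) for the 47 genes, colored by role, with filled points at an adjusted p under 0.05. Storage genes, inhibitors and Smads lie left of 0, and 6 of 10 ligands lie right of it with filled points.

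To compare genes with each other, CPM were divided by the length of the Ensembl canonical transcript. By this measure Grem1 stood above all other members of its role in both populations with vehicle, at 643.5 ± 131.5 CPM per kb in fibroblasts and 114.5 ± 46.3 in Epcam+ cells (SD, n = 4). Among the ligands Inhbb led in fibroblasts (68.6 ± 7.74) and Bmp4 in Epcam+ cells (25.1 ± 3.90), where Inhbb followed within the spread (22.1 ± 2.57). Ltbp1 led the storage genes in fibroblasts (148 ± 11.8) and Ltbp3 in Epcam+ cells (32.1 ± 3.54), close to Ltbp1 (28.2 ± 6.88). Tgfbr3 was the most abundant receptor in fibroblasts (59.3 ± 5.33) and Tgfbr2, the type II receptor for TGF-beta, in Epcam+ cells (29.5 ± 3.01). Tgif1, a Smad co-repressor, led the intracellular regulators in both (90.4 ± 16.4 and 56.7 ± 8.29). Id1 and Id3 did not differ beyond their spread in fibroblasts (115.9 ± 20.8 and 115.5 ± 10.7), and Id1 led in Epcam+ cells (40.6 ± 8.14). Smad3 reached 49.2 ± 2.44 and 20.5 ± 1.13 CPM per kb. Smad2 was not ranked against Smad3, because its canonical transcript is only 1645 nt long and most of its annotated protein-coding transcripts are longer.

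With OGN, Tgfb1 rose in fibroblasts and Id4 fell in Epcam+ cells. Ltbp4 and the activin subunit gene Inhba fell in fibroblasts, Inhbb fell in Epcam+ cells, and the receptor genes Acvrl1 and Acvr1b rose, each in 1 population. In Epcam+ cells 1 of the 47 genes rose and 2 fell, which is 6.38% beside 2.70% of all 11716 genes tested (1.48% higher and 1.22% lower). In fibroblasts 2 rose and 2 fell, which is 8.51% beside 4.56% of 11689 (2.70% higher and 1.86% lower). The median log2 change of the 47 genes was -0.0637 in Epcam+ cells and -0.0242 in fibroblasts, beside -0.00308 and -0.0109 over all genes.

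Of the ligands, Tgfb1 changed most. Fibroblasts of mice 1 to 4 had 32.1, 28.3, 31.1 and 38.0 CPM with vehicle and 65.5, 52.5, 59.9 and 68.9 CPM with OGN (here and below, a row of 4 values is in this order). All OGN libraries lay above all vehicle libraries (log2 change 0.92, SE 0.11, adjusted p = 7.76e-05, 4 of 4 mice). In Epcam+ cells the values were 34.3, 35.4, 30.9 and 37.7 CPM with vehicle and 40.0, 40.4, 43.7 and 36.9 CPM with OGN, which overlapped (log2 change 0.22, SE 0.12, adjusted p = 0.454). The change was larger in fibroblasts by 0.70 (SE 0.16, adjusted p = 0.0359, interaction test), and Tgfb1 was the 1 gene of the 47 whose response to OGN differed between populations, beside 0.551% of 11805 genes (0.407% higher and 0.144% lower). This difference was not called in any fit that left out 1 mouse (adjusted p between 0.131 and 0.278).

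The activin subunits were lower with OGN, each called in 1 population. Inhba in fibroblasts had 113, 119, 76.1 and 86.7 CPM with vehicle and 79.6, 89.9, 44.9 and 59.7 CPM with OGN. The groups overlapped, but each mouse was lower with OGN (log2 change -0.55, SE 0.12, adjusted p = 0.0115). Inhbb in Epcam+ cells had 89.5, 87.2, 92.2 and 111 CPM with vehicle and 60.6, 54.8, 86.1 and 86.9 CPM with OGN, where every OGN library lay below every vehicle library (log2 change -0.41, SE 0.11, adjusted p = 0.0342). It stood there at 32.2% of its fibroblast level with vehicle and 26.9% with OGN, beside 20.8% and 18.3% for the fibroblast list. The part of fibroblast RNA in this fall was not tested. The values of the other population were -0.20 for Inhba in Epcam+ cells and -0.15 for Inhbb in fibroblasts, neither of them called. No difference between populations was called for either (adjusted p = 0.869 and 0.733).

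Ltbp4, a latent TGF-beta binding protein, had 56.6, 53.3, 58.7 and 62.5 CPM with vehicle and 31.96, 35.3, 37.9 and 40.6 CPM with OGN in fibroblasts. Every OGN library lay below every vehicle library (log2 change -0.67, SE 0.11, adjusted p = 0.00152). In Epcam+ cells its log2 change was -0.72 with a larger error (SE 0.22, adjusted p = 0.0917). Of the receptors, Acvrl1 rose in fibroblasts, with 45.0, 52.0, 49.2 and 48.8 CPM with vehicle and 62.1, 60.6, 60.2 and 70.0 CPM with OGN, without overlap (log2 change 0.37, SE 0.09, adjusted p = 0.0249). Acvr1b rose in Epcam+ cells, with 72.8, 72.7, 63.9 and 64.4 CPM with vehicle and 83.1, 83.9, 112 and 99.5 CPM with OGN, also without overlap (log2 change 0.45, SE 0.12, adjusted p = 0.0349). Tgfbr1 in fibroblasts lay just outside the threshold (log2 change 0.63, SE 0.17, adjusted p = 0.0507), and its OGN libraries (60.4 to 69.9 CPM) were all above its vehicle libraries (38.5 to 46.4 CPM).

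Fst, Fstl1, Fstl3 and Grem1 were not called with OGN in either population, and Grem1 had a log2 change of 0.15 in fibroblasts and 0.14 in Epcam+ cells. No Smad and no intracellular regulator was called with OGN in either population, with log2 changes of the Smads between -0.44 and 0.04 in Epcam+ cells and between -0.34 and 0.22 in fibroblasts. Of the Id genes, Id4 fell in Epcam+ cells, with 16.4, 19.9, 11.5 and 12.6 CPM with vehicle and 5.28, 10.5, 8.54 and 6.19 CPM with OGN. Every OGN library lay below every vehicle library (log2 change -0.997, SE 0.23, adjusted p = 0.0155). In fibroblasts, where the lowest libraries held 3 counts with vehicle and 6 with OGN, the change was -0.78 with an SE of 0.59. Id1, Id2 and Id3 were not called in either population.

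**Figure D2:**
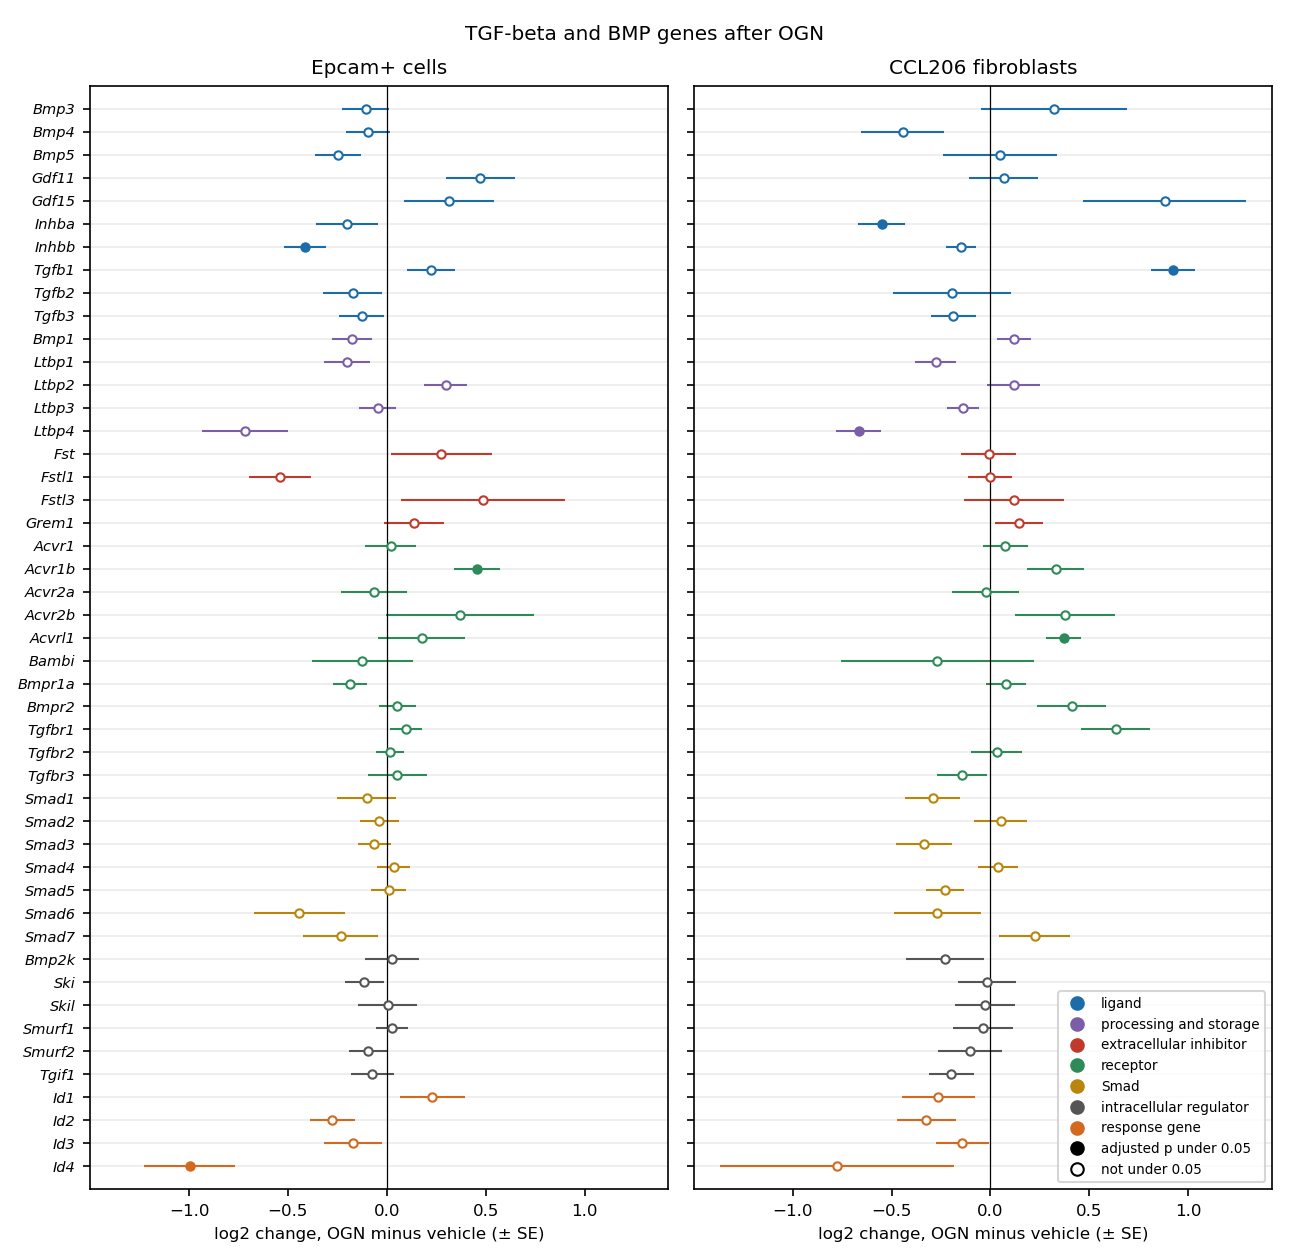
Log2 change with OGN (x axis, OGN minus vehicle, bars ± SE, 4 mice) of the 47 genes in Epcam+ cells (left) and CCL206 fibroblasts (right), colored by role, with filled points at an adjusted p under 0.05. Id4 is filled in Epcam+ cells at -0.997, and Tgfb1 is filled in fibroblasts at 0.92.

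**Figure D3:**
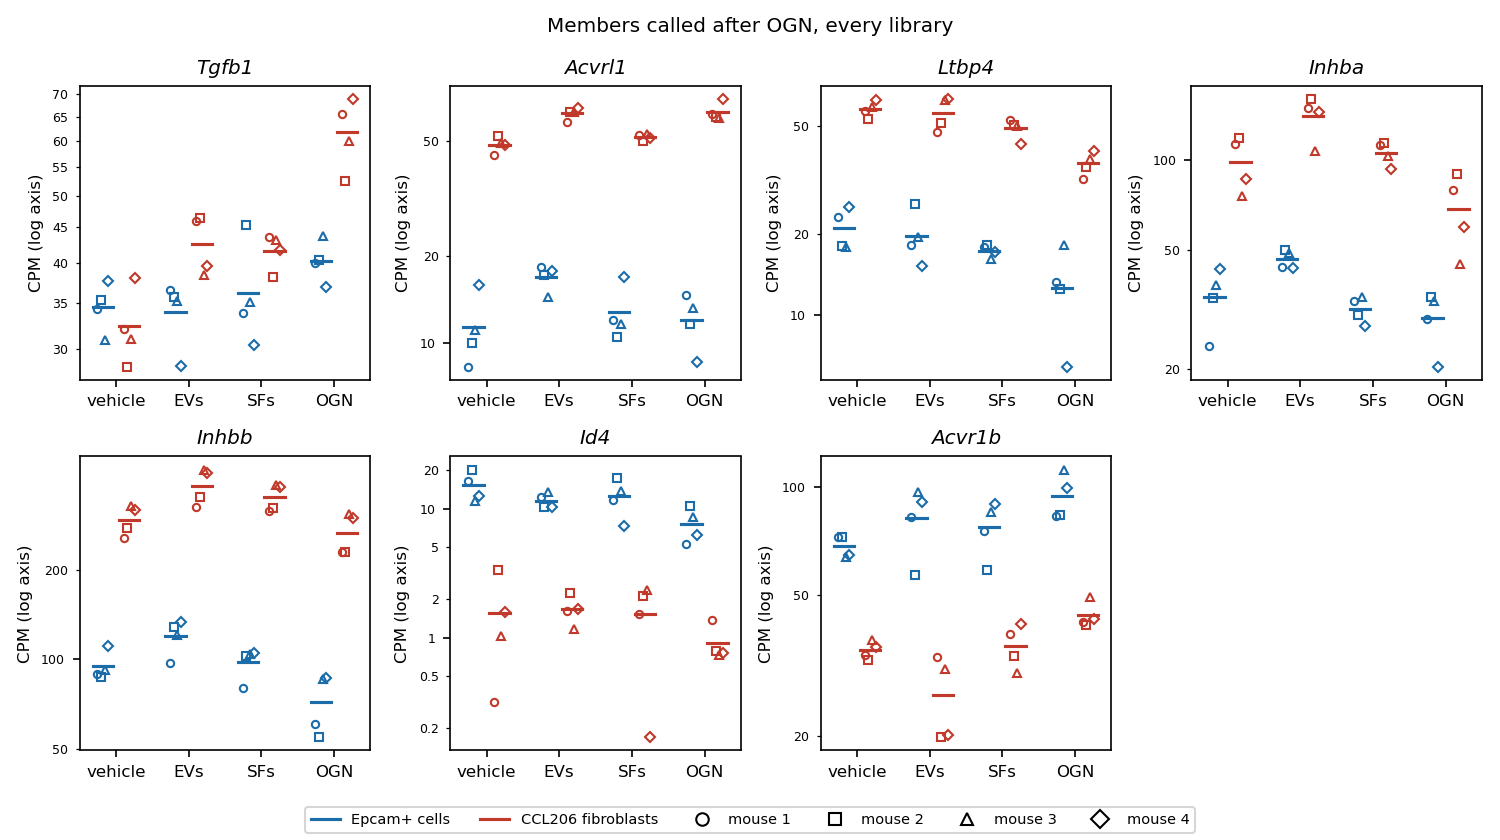
CPM (log axis, a different range in each panel) of the 7 genes called with OGN in at least 1 population, for each library by treatment, with a symbol per mouse and a line at the group mean. Tgfb1 in fibroblasts lies at 52.5 to 68.9 CPM with OGN and at 28.3 to 38.0 CPM with vehicle.

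The calls with OGN depended on which libraries shared the fit. In fibroblasts, 11 of the 47 genes (23.4%, beside 15.1% of all genes in the same fit) were called where the EV libraries were left out, with Tgfbr1, Acvr1b and Bmpr2 added among those that rose and Ltbp1, Smad3, Smad5 and Id2 among those that fell. In Epcam+ cells, 0 of the 47 genes were called by edgeR without mouse 1 and with the 8 compared libraries only. Of all genes these fits called 1.23% and 1.61%. Without mouse 4 edgeR called 1 gene, Id4 (2.13% beside 2.29% of all genes). DESeq2 on all libraries called 5 (10.6% beside 3.97%), where Fstl1 and Ltbp4 were added among those that fell. Acvr1b and Inhbb in Epcam+ cells each lost their call in 3 of the 4 fits that left out 1 mouse (edgeR adjusted p up to 0.324 and 0.3), and Id4 in 1 (0.273). Tgfb1 and Ltbp4 in fibroblasts were called with each mouse left out in turn, Inhba without mouse 4 only, and Acvrl1 in none of the 4 such fits.

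The genomic sequence just upstream of the RefSeq transcription start is shown for Tgfb1, whose response to OGN differed between populations, for Id4, which fell with OGN in Epcam+ cells, and for Id3, an Id gene that rose with EVs in fibroblasts (below). Each is 250 bases, 5′ to 3′ on the gene's own strand, from the RefSeq table of GRCm38.p6. Capitals mark the letters GTCTG or CAGAC (a Smad-binding half-site and its reverse complement) and GGCGCC (a GC-rich Smad motif that is its own reverse complement), searched on both strands.
Tgfb1, chr7:25686752-25687001, plus strand: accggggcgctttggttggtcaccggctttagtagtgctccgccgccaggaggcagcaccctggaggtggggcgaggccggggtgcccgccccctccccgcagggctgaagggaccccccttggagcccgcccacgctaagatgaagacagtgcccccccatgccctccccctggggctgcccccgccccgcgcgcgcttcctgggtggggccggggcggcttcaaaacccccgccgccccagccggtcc
Id4, chr13:48260866-48261115, plus strand: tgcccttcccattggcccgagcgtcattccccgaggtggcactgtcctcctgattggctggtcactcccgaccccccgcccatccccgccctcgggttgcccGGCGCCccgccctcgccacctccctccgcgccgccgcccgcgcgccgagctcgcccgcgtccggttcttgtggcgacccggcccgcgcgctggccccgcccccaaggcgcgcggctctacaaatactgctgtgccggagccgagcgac
Id3, chr4:136143572-136143821, plus strand: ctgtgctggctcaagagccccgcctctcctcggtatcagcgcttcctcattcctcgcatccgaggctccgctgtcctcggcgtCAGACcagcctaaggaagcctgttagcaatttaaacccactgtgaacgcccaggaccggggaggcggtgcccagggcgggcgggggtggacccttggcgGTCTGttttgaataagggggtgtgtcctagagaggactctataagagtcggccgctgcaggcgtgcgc
The Id4 window held GGCGCC 1 time and the half-site 0 times, the Id3 window the half-site 2 times and GGCGCC 0 times, and the Tgfb1 window neither. Over all 32851 windows of this length in the table, 42.2% held GTCTG or CAGAC and 9.59% held GGCGCC. Of the 47 genes 35 had at least 1 window (46 windows in all), of which 21 held the half-site and 12 held GGCGCC.

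With EVs, the fibroblasts changed in many genes and the Epcam+ cells in few. In fibroblasts Id1 and Id3, both activin subunits, follistatin, Tgfb1 and Acvrl1 rose, while 3 of 11 receptors, 2 of 7 Smads, 2 of 6 intracellular regulators and the ligand gene Bmp5 fell. Of the 47 genes, 7 were higher and 8 lower, which is 31.9% beside 36.0% of all 11689 genes (19.8% higher and 16.2% lower), so the share lay below that of the table. The median log2 change was -0.223, beside -0.0132 over all genes. In Epcam+ cells 1 of the 47 genes, Ltbp2, was higher and none lower (2.13% beside 0.888% of 11716 genes, 0.538% higher and 0.350% lower), and 12 (25.5%) had an unadjusted p under 0.05, beside 10.2% of all genes.

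The rise of Id1 in fibroblasts was uneven. It had 145, 161, 121 and 107 CPM with vehicle and 166, 323, 186 and 342 CPM with EVs, where the libraries of mice 2 and 4 were highest and the groups did not overlap (log2 change 0.91, SE 0.19, adjusted p = 0.00472). Id3 had 142, 167, 134 and 147 CPM with vehicle and 188, 266, 157 and 326 CPM with EVs, which overlapped (log2 change 0.63, SE 0.14, adjusted p = 0.00556). Fst, the activin trap follistatin, had 33.2, 40.0, 27.3 and 29.2 CPM with vehicle and 36.6, 56.6, 45.2 and 56.4 CPM with EVs, also with overlap (log2 change 0.59, SE 0.14, adjusted p = 0.0079).

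Both activin subunits rose in each mouse. Inhbb had 257, 278, 328 and 318 CPM with vehicle and 325, 353, 435 and 424 CPM with EVs, and it was higher in 4 of 4 mice although the groups overlapped (log2 change 0.38, SE 0.08, adjusted p = 0.00422). Inhba had 113, 119, 76.1 and 86.7 CPM with vehicle and 149, 160, 107 and 145 CPM with EVs, higher in 4 of 4 mice with overlap (log2 change 0.52, SE 0.12, adjusted p = 0.00725). Tgfb1 (log2 change 0.40, adjusted p = 0.0168) and Acvrl1 (0.36, adjusted p = 0.0104) rose without overlap.

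Among the genes that fell with EVs, Tgif1 had 174, 167, 118 and 133 CPM with vehicle and 110, 121, 97.9 and 75.6 CPM with EVs. It was lower in 4 of 4 mice, with overlap (log2 change -0.54, SE 0.12, adjusted p = 0.00545). Acvr2a, an activin type II receptor, had 30.5, 24.8, 22.7 and 25.2 CPM with vehicle and 20.4, 12.4, 19.3 and 9.49 CPM with EVs, without overlap (log2 change -0.74, SE 0.18, adjusted p = 0.00927). Bmpr2 had 183, 184, 169 and 170 CPM with vehicle and 147, 71.5, 134 and 78.4 CPM with EVs, without overlap (log2 change -0.72, SE 0.18, adjusted p = 0.00983). In both receptor genes the libraries of mice 2 and 4 were the lowest. Smad2 had 77.5, 71.8, 82.1 and 72.1 CPM with vehicle and 59.9, 46.7, 58.8 and 49.1 CPM with EVs, without overlap (log2 change -0.49, SE 0.14, adjusted p = 0.0142). Bmp5 had 11.1, 5.83, 5.49 and 3.66 CPM with vehicle and 3.88, 4.14, 3.66 and 0.837 CPM with EVs, which overlapped, and its lowest library held 3 counts (log2 change -1.08, SE 0.33, adjusted p = 0.0224). Smurf2, a ubiquitin ligase for Smads and receptors, Acvr1b and Smad5 fell by 0.47, 0.42 and 0.31 on the log2 scale.

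The changes of the fibroblasts with EVs went along with transcript length. Across all genes with a length, the log2 ratio of an EV library to the vehicle libraries correlated with canonical transcript length at Spearman -0.288, -0.585, -0.364 and -0.625 in mice 1 to 4 (a description across genes, which are not independent). In fibroblasts the values were -0.141 to 0.19 with vehicle, -0.156 to 0.113 with OGN and -0.244 to -0.0571 with SFs. In Epcam+ cells, set against their own vehicle libraries, they reached from -0.288 (mouse 4 with OGN, as low as mouse 1 of the fibroblasts with EVs) to 0.33 (mouse 1 with SFs). The 7 genes that rose had a median length of 2162 nt (1154 to 6016) and the 8 that fell of 4904 nt (1639 to 12914), beside 5177 nt (1916 to 10734) for the 32 not called. With the length trend of each library removed, 13 genes were called (27.7% beside 26.8% of all genes). Of those that rose, Id1 moved to 0.50, Id3 to 0.27, Fst to 0.41, Inhba to 0.94 and Inhbb to 0.63 and were called again, whereas Tgfb1 (0.30) and Acvrl1 (0.25) were not. Tgif1 (-0.77), Smad2 (-0.72) and Bmp5 (-0.91) were called lower again, Bmp1, Fstl1, Ltbp3, Smad4 and Tgfbr2 were called higher, and Bmpr2 (0.03) and Smad5 (0.16) changed sign without being called. The value of Smad2 in that fit rests on its short canonical transcript. Without the EV libraries of mice 2 and 4, Id1, Inhba, Inhbb and Tgif1 were called (8.51% beside 5.48% of all genes). Without all libraries of mouse 2 none was called, beside 0.162% of all genes. Without those of mouse 4 Id1, Inhbb, Tgfb1 and Tgif1 were called (8.51% beside 6.07% of all genes).

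**Figure D4:**
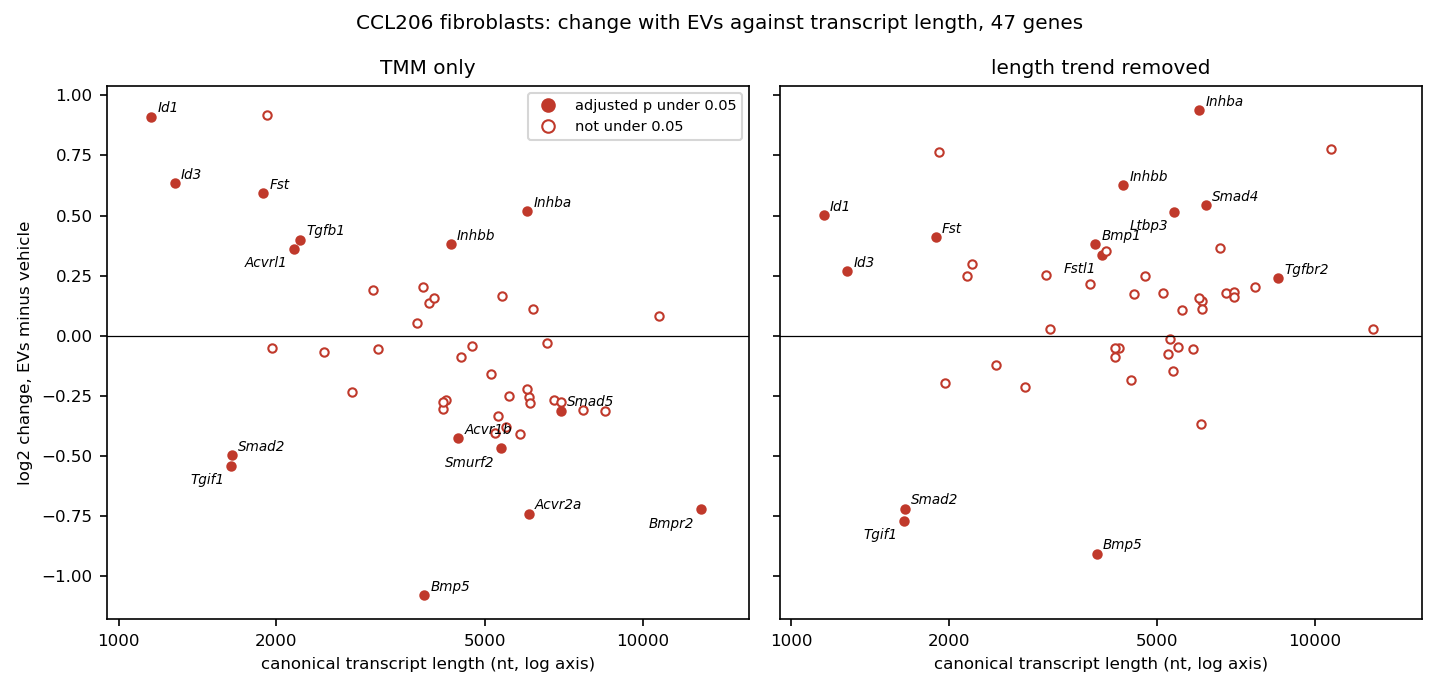
Log2 change with EVs in CCL206 fibroblasts (y axis) of the 47 genes against canonical transcript length (x axis, log scale), on TMM-scaled counts (left) and with each library's length trend removed (right). Filled points have an adjusted p under 0.05 and are named. Id1 at 1154 nt lies at 0.91 and Bmpr2 at 12914 nt at -0.72 on the left, and at 0.50 and 0.03 on the right.

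In Epcam+ cells with EVs, Ltbp2 had 107, 95.8, 124 and 147 CPM with vehicle and 145, 187, 177 and 174 CPM with EVs. It was higher in 4 of 4 mice, with a slight overlap (log2 change 0.52, SE 0.11, adjusted p = 0.022). The fibroblast list moved with it. Its sum was 2239 to 3111 CPM with vehicle and 3162 to 3745 CPM with EVs in these cells, and Ltbp2 there stood at 16.3% of its fibroblast level with vehicle and 27.9% with EVs, beside 20.8% and 33.3% for the list. The part of fibroblast RNA in this rise was not tested. The call was lost in 3 of the 4 fits that left out 1 mouse (adjusted p up to 0.193), and without mouse 4 Fst, Inhba, Ltbp1 and Tgfbr3 were called beside Ltbp2.

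The effect of EVs differed between populations in 11 of the 47 genes, each lower in fibroblasts relative to Epcam+ cells (23.4% beside 23.8% of 11805 genes, 11.8% higher and 12.0% lower). They are Ltbp2, Bmpr2, Tgfbr3, Gdf11, Acvr1b, Ltbp1, Smad3, Smurf1, Smad2, Smurf2 and Tgif1, with differences between -0.93 and -0.44 on the log2 scale. Ltbp2 differed most surely (-0.81, SE 0.19, adjusted p = 0.00612), with 721, 698, 713 and 781 CPM with vehicle and 646, 558, 816 and 428 CPM with EVs in fibroblasts. The fibroblast values overlapped, while those of Epcam+ cells rose as given above. Tgfbr3 (-0.82) had 355, 320, 373 and 396 CPM with vehicle and 342, 253, 360.2 and 234 CPM with EVs in fibroblasts, against 46.3, 40.2, 65.1 and 73.1 and then 82.2, 81.5, 77.6 and 79.2 CPM in Epcam+ cells. Only the latter groups were without overlap. Tgfbr3 in Epcam+ cells stood at 15.6% of its fibroblast level with vehicle and 26.9% with EVs, beside 20.8% and 33.3% for the fibroblast list, whose part in this difference was not tested.

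Gdf11 had the largest of these differences (-0.93, SE 0.24, adjusted p = 0.0104), with 9.39, 6.11, 10.7 and 14.8 CPM with vehicle and 14.97, 13.9, 17.6 and 17.9 CPM with EVs in Epcam+ cells. In fibroblasts it had 30.1, 30.3, 48.3 and 42.9 CPM and then 30.8, 32.6, 36.7 and 24.8 CPM, and neither population was called on its own. Bmpr2 (-0.84) and Acvr1b (-0.66) had log2 changes of 0.10 and 0.22 in Epcam+ cells, where neither was called, beside the falls in fibroblasts. With the length trend removed 3 differences were called (Smad2, Smad4 and Tgif1), which is 6.38% beside 13.8% of all genes. Without the EV fibroblast libraries of mice 2 and 4 none was, by edgeR, beside 0.279% of all genes.

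With SFs no gene of the 47 was called in either population, beside 0.230% of 11716 genes in Epcam+ cells (0.154% higher and 0.0768% lower) and 0.0599% of 11689 in fibroblasts, all of these higher (edgeR). At an unadjusted p under 0.05 there were 5 in Epcam+ cells (10.6% beside 7.79% of all genes) and 3 in fibroblasts (6.38% beside 5.31%), shares near those of the table. DESeq2 called 0 and 1 (Inhbb), beside 0.452% and 0.274% of all genes. Tgfb1 had 38.2 to 43.6 CPM with SFs and 28.3 to 38.0 with vehicle, without overlap (log2 change 0.37, SE 0.11, adjusted p = 0.638). All 3 comparisons in a population share the vehicle libraries. No difference between populations was called for SFs in the 47 genes (0% of 11805 genes, 2 of the 47 at an unadjusted p under 0.05, which is 4.26% beside 5% of all genes, and 0 by DESeq2).

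Other genes of the pathway were read from 5 lists. In the list of latent TGF-beta storage, release and co-receptors 16 of 21 genes were present. With OGN, Dcn, the proteoglycan decorin that binds TGF-beta, rose in Epcam+ cells (log2 change 1.14, SE 0.12, adjusted p = 2.86e-06) and in fibroblasts (1.40, SE 0.09, adjusted p = 2.07e-07). Dcn is also in the fibroblast list. In Epcam+ cells it stood at 19.7% of its fibroblast level with vehicle and 16.2% with OGN, beside 20.8% and 18.6% for that list without Dcn. The part of fibroblast RNA in the rise of Dcn in Epcam+ cells was not tested. The integrin gene Itgb6, whose product activates latent TGF-beta, rose in Epcam+ cells (0.52), and in fibroblasts Furin, a proprotein convertase, rose (0.39) and Cd109, a TGF-beta co-receptor, fell by 0.54. In all, 2 of its genes rose and 0 fell in Epcam+ cells, and 2 rose and 1 fell in fibroblasts (12.5% and 18.8% of the list, beside 2.70% and 4.56% of all genes).

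Of 22 extracellular BMP modulators 10 were present. With OGN, Crim1 fell by 0.35 in Epcam+ cells. In fibroblasts with OGN the BMP antagonist Nbl1 rose by 0.79 and the protease gene Htra1 fell by 0.52. These are 1 and 2 of 10 genes, or 10% and 20%, beside 2.70% and 4.56% of all genes. In so short a list 1 gene is 10%. Of 38 Smad cofactors and turnover genes 36 were present. Cav1, which encodes the main caveolar protein, fell by 0.67 in Epcam+ cells and by 0.71 in fibroblasts, the only one of the 36 called in fibroblasts, and the ubiquitin ligases Nedd4l and Wwp1 fell by 0.34 and 0.36 in Epcam+ cells. These are 8.33% of the 36 in Epcam+ cells, beside 2.70% of all genes, and 2.78% in fibroblasts, below the 4.56% of all genes.

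Of 21 TGF-beta target genes 17 were present. In each population 1 was called with OGN, Lox, the collagen cross-linking enzyme. Its log2 change was 0.72 (SE 0.12) in Epcam+ cells and 1.46 (SE 0.13) in fibroblasts. This 1 gene is 5.88% of the list, beside 2.70% of all genes in Epcam+ cells and 4.56% in fibroblasts. The median of the 17 was -0.239 and -0.245, so most lay below 0 without being called. With EVs 5 of the 17 rose in Epcam+ cells (Col3a1, Col4a1, Col1a1, Fn1 and Acta2), which is 29.4% beside 0.888% of all genes. Of these Fn1 is also in the fibroblast list, which stood in Epcam+ cells at 20.8% of its fibroblast level with vehicle and 33.3% with EVs. With vehicle 14 of the 17 were lower in Epcam+ cells than in fibroblasts and 2 higher (94.1% called beside 71.4% of all genes). The part of fibroblast RNA in the 5 rises was not tested. In fibroblasts with EVs 3 rose and 3 fell, 35.3% beside 36.0% of all genes, and with SFs none was called in either population. At an unadjusted p under 0.05 (edgeR), SFs gave 9 of the 17 in Epcam+ cells (52.9% beside 7.79% of all genes) and 1 in fibroblasts (5.88% beside 5.31%). OGN gave 8 (47.1% beside 13.1%) and 4 (23.5% beside 15.7%). The part of fibroblast RNA in these shares of Epcam+ cells was not tested. Of 9 BMP target genes 3 were present, and 1 of them, Tnfrsf11b, which encodes osteoprotegerin, fell by 0.59 with OGN in fibroblasts. It is 33.3% of so short a list, beside 4.56% of all genes.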

How the data were processed

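RNA of 32 libraries was sequenced by the authors, trimmed with Trimmomatic (version 0.30), aligned and counted per gene. The aligner and the counting program are not given in the sources used here. The labels name GRCm39 as the genome and the methods GRCm38 (patch 6). Which of them the counts rest on is not settled here, and no coordinates were taken from the counts. The deposited values are raw read counts that the authors had not normalized, for 11818 genes, none of them below 1 count in any library. All sample columns were used.

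Of the genes that the choice by symbol finds, 1 is not reported here. The genes, their roles, the lists and the comparisons were chosen with earlier results of these data known. Genes were filtered with filterByExpr, scaled by TMM and tested with edgeR's quasi-likelihood test (version 4.0.16, R version 4.3.3), and p values were adjusted by Benjamini-Hochberg over all genes tested. Each treatment was compared with vehicle over the 16 libraries of a population in a model of treatment and mouse, the populations over 8 vehicle libraries, and interactions over all 32 libraries with a mouse term per population. A gene was called at an adjusted p under 0.05. The SE was derived from the log2 change and its F value (absolute change over the root of F). All 3 treatments share the vehicle libraries.

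Libraries were paired because the labels give the same mouse to them. Deviations from the group means correlated at a mean r of 0.0909 to 0.226 within a mouse and -0.0706 to -0.0308 between mice over the 6 treatment comparisons. The lowest single r within a mouse was -0.0587, in fibroblasts with EVs. Because each group was centered on its own mean, the opposite sign between mice follows from the centering and is not separate evidence of pairing. Fibroblasts come from 1 line, so p values there measure the spread between cultures. Replicate libraries differed beyond counting error in all 48 pairs (lowest chi-square per degree of freedom 2.98).

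Lengths of Ensembl canonical transcripts (GENCODE M39) were found for 11686 genes (98.9%), 69 of them by another symbol. Alternatives were the model without mouse, DESeq2 (version 1.42.0), RLE size factors, no filter, each mouse left out, other sets of libraries and, for fibroblasts and interactions, a spline of transcript length with 4 degrees of freedom as an offset. The fits for OGN, for the populations and for the interaction of OGN were tried on counts simulated with known changes. That simulation gave all genes the same dispersion, with no mouse effect and no length trend. It did not cover the comparisons with EVs or SFs. Named are all genes called with OGN, up to 5 with the smallest p in each direction for EVs, SFs and interactions, the 5 with the largest difference in each direction between populations, the most abundant per length in each role, and up to 4 of each further list called with OGN. Tgfbr1 with OGN, Fstl3, and genes named at an unadjusted p or as background of a group, were chosen after their values were seen. Figures were drawn with matplotlib (version 3.10.9).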

Additional observations from a re-analysis of the deposited data

Results flagged for a closer look

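In groups of 4 libraries, 7 of 184 gene and group pairs over 23 named genes had 1 library far from the other 3, by the gap to its neighbor divided by the range of the group (above the 95% critical value of Dixon's test). Chance gives about 1 in 20. In fibroblasts with EVs, mouse 4 was the lowest for Bmp5 (0.853, 0.837 CPM beside 3.66). In Epcam+ cells with EVs, mouse 4 was the lowest for Tgfb1 (0.831, 28.3 CPM beside 35.2). In Epcam+ cells with SFs, mouse 3 was the lowest for Gdf15 (0.837), mouse 2 the highest for Id1 (0.832) and mouse 1 the lowest for Inhbb (0.902, 80.2 CPM beside 103). With OGN, mouse 1 was the highest for Tgfbr3 in Epcam+ cells (0.843, 75.6 CPM beside 53.5) and for Id4 in fibroblasts (0.922, 1.36 CPM beside 0.788, a level of few counts).

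A treatment effect differed between the populations, by the interaction test of edgeR, for 12 of the 47 genes. For OGN it was Tgfb1 (0.70 on the log2 scale, higher in fibroblasts). For EVs the differences were -0.66 for Acvr1b, -0.84 for Bmpr2, -0.93 for Gdf11, -0.54 for Ltbp1, -0.81 for Ltbp2, -0.49 for Smad2, -0.55 for Smad3, Smurf1 and Smurf2, -0.82 for Tgfbr3 and -0.44 for Tgif1, each lower in fibroblasts.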

How the results depend on the processing

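Counts of called genes of the 47 changed by over 1.5 times under these alternatives. With OGN in Epcam+ cells 3 were called, 5 by DESeq2, 0 with only the 8 libraries compared, and 0 to 4 with a mouse left out. Of all genes these fits called 2.70%, 3.97%, 1.61% and 1.23% to 2.29%. With OGN in fibroblasts 4 were called, 2 to 3 with a mouse left out, and 11 with only the 8 libraries compared, without the EV libraries, or without the EV fibroblast libraries of mice 2 and 4 (the last chosen after seeing the data). The shares of all genes were 4.56%, 2.02% to 3.51%, and then 11.7%, 15.1% and 13.8%. With EVs in Epcam+ cells 1 was called, 2 by DESeq2 and 0 to 5 with a mouse left out, beside 0.888%, 1.72% and 0.145% to 1.33% of all genes. With EVs in fibroblasts 15 were called, 0 to 18 with a mouse left out, 0 with only the 8 libraries compared and 4 without the EV libraries of mice 2 and 4. Of all genes these fits called 36.0%, 0.162% to 38.9%, 3.34% and 5.48%. Bmpr2 (0.026) and Smad5 (0.16) turned with the length trend removed. With SFs in fibroblasts 0 were called, and 1 by DESeq2, without the EV libraries or with only the 8 libraries compared. The shares of all genes were 0.0599%, and then 0.274%, 0.924% and 2.63%. For the interaction of OGN 1 was called, 0 to 0 with a mouse left out and 2 without the EV libraries (added after seeing the data), beside 0.551%, 0.136% to 0.398% and 1.35% of all genes. For the interaction of EVs 11 were called, 0 to 10 with a mouse left out, 3 with the length trend removed and 0 without the EV fibroblast libraries of mice 2 and 4. Of all genes those fits called 23.8%, 2.21% to 25.2%, 13.8% and 0.279%. Causes were not tested.

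Without mouse as a block, the pairing being dropped, 0 genes were called with OGN and 0 with EVs in Epcam+ cells, and 0 in the interaction of OGN. The shares of all genes there were 1.69%, 0.0768% and 0.296%. Acvr1b (adjusted p = 0.121), Id4 (0.0608) and Inhbb (0.259) with OGN and Ltbp2 with EVs (0.143) in Epcam+ cells lost their calls, as did Inhba with OGN in fibroblasts (0.148), Bmp5 with EVs in fibroblasts (0.0948), Tgfb1 in the interaction of OGN (0.0632) and Smurf2 and Tgif1 in that of EVs (0.0564 and 0.0818). The other calls remained. The difference between populations gave 37 to 39 called genes under each mouse left out, beside 64.5% to 68.7% of all genes. RLE size factors moved the median of all genes by at most 0.0193. Genes with few counts, such as Id4 and Bmp5 in fibroblasts, limit what this depth can show.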
